A study of Homo sapiens with 6 samples.

Results

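Mitochondrial ribosomal proteins are encoded by nuclear genes whose symbols start with MRPL (large subunit) or MRPS (small subunit). They were taken from the deposited gene table as every row whose symbol is MRPL or MRPS followed by a number and, for some, a letter A to C, with descriptions naming a pseudogene left out. The rule found 78 genes of the 27685 in the table, 49 of the large and 29 of the small subunit, and all 78 passed the filter on low counts. No measured value entered the choice.

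The series measured polyA RNA of Caco-2 cells, an established human colorectal tumour line, by RNA sequencing in 6 libraries. The 3 libraries labelled hFABP1as come from cells carrying a construct antisense to FABP1, a fatty acid carrier of liver and intestine, and their genotype is labelled as a knockdown. The 3 control libraries come from cells mock-transfected with the vector pcDNA3, with the genotype labelled as wild type. The labels give neither the number of lines or clones behind a group nor the number of cultures, so a p-value here measures the spread among libraries, which may be technical. FABP1 itself had 134, 147 and 122 CPM (read counts scaled to library size) in the libraries labelled FABP1 antisense, against 138, 102 and 121 CPM in the vector control libraries. Its groups overlapped (log2 fold change 0.16, SE 0.12, edgeR adjusted p = 0.268), so its counts did not separate the groups as the label would have it. Use of strand in counting is not known, and whether RNA of the construct adds to these counts was not tested. The groups are therefore called libraries labelled antisense and vector control libraries. Values of each group are given in the order of library numbers 2, 3 and 4 in the column headers.

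The mitoribosome is the ribosome inside mitochondria, where it translates the few messenger RNAs of the mitochondrial genome into core subunits of the respiratory chain and of ATP synthase. Its ribosomal RNAs are made in the organelle, while its proteins are made in the cytosol and imported. Many of the proteins descend from those of the bacterial ribosome, and others were acquired by the mitochondrial ribosome and have no bacterial counterpart. Cells of the intestinal epithelium use it, as other cells do, to build the machinery of oxidative phosphorylation.

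Total counts were 41768687, 44496791 and 55153051 in the libraries labelled antisense, against 57979037, 40351394 and 43673999 in the vector control libraries. At these depths 3 counts correspond to 0.0521 to 0.0735 CPM, and the mitoribosomal protein genes lay far above that. Some markers of other cell types did not. In vector control libraries VWF had 0.139, 0 and 0 CPM and LUM 0.0695, 0.098 and 0.233 CPM, so their fold changes rest on few control reads. Correlations of libraries were 0.984 to 0.989 within groups and 0.921 to 0.927 between them. All 9 colonic epithelium markers were present, with summed levels of 16079 to 18963 CPM in the libraries labelled antisense and 14274 to 17571 CPM in the vector control libraries. Most of that sum is KRT8 and KRT18, and the single markers moved in both directions, with 5 called higher and 2 lower. LGALS4 averaged 12.8 CPM in libraries labelled antisense and 0.455 CPM in vector control libraries (log2 fold change 4.77), and CDH17 (1.32), CDX2 (1.09), KRT18 (0.27) and CDH1 (0.20) were also higher, while KRT19 (-0.51) and VIL1 (-0.20) were lower.

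Markers of other cell types were low. Endothelial ones summed to 2.39 to 2.67 CPM in libraries labelled antisense, against 0.833 to 1.42 CPM in vector control libraries, with both tested ones (PECAM1 and VWF) higher and CDH5 at 0 in all 6 libraries. Fibroblast markers summed to 26.4 to 30.8 CPM in libraries labelled antisense, against 13.4 to 16.8 CPM in vector control libraries. That gap is LUM, at 18.1 CPM in libraries labelled antisense and 0.133 CPM in vector control libraries, since PDGFRB fell (-1.13), COL1A1 did not pass (-0.05) and COL1A2, DCN and THY1 were at 0 in every library. Leukocyte markers summed to 28.1 to 28.2 CPM in libraries labelled antisense and 24.7 to 25.6 CPM in vector control libraries, with LYZ higher (1.04), CD14 lower (-2.38) and PTPRC at 0 in every library. The part of these marker differences in the results on mitoribosomal genes was not tested.

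Of the 78 mitoribosomal protein genes, 34 rose in the libraries labelled antisense, 7 fell and 37 did not pass the test (edgeR quasi-likelihood, Benjamini-Hochberg adjustment over all genes, threshold 0.05). Differences between the groups were widespread, since 55.0% of the 14640 tested genes were called, 27.7% higher and 27.3% lower. Against that background, 43.6% of the mitoribosomal genes were called higher and 8.97% lower, so the total share called, 52.6%, was close to the background, while the split by direction was uneven. Their median log2 fold change was 0.19, with an interquartile range of -0.08 to 0.34, beside a median of 0.01 over all tested genes. The changes were small: 7 rises and 3 falls reached 1.5-fold, and none reached 2-fold. Among all 14640 tested genes, 2131 rises and 1852 falls reached 1.5-fold, and 1289 rises and 896 falls reached 2-fold. Without vector control library 3, 12 genes were called lower in place of 7, and 26.4% of all tested genes were called lower in that fit. In bulk RNA, fewer cells of a type and less RNA per cell cannot be told apart.

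**Figure D1:**
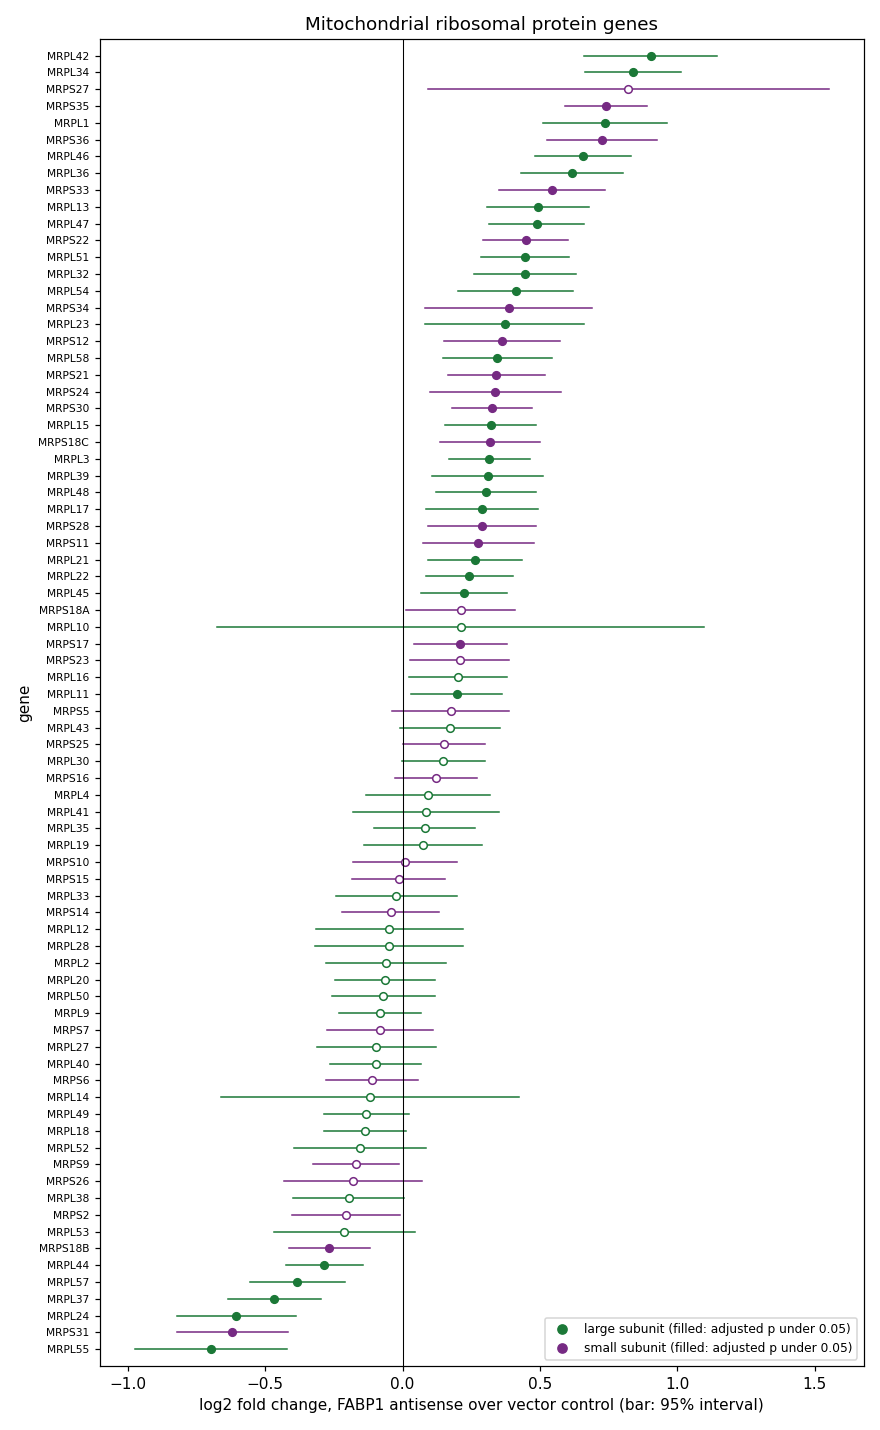
Log2 fold change (libraries labelled antisense over vector control) of the 78 mitoribosomal protein genes on the horizontal axis, with 95% intervals as bars; green marks large and purple small subunit genes, and filled points passed an adjusted p of 0.05. Filled points run from -0.70 (MRPL55) to 0.90 (MRPL42), with 34 right of 0 and 7 left of it.

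In 40 genes every library labelled antisense was above every vector control library, and in 10 genes every one was below, while over all tested genes the groups were apart in 31.7% upward and 31.0% downward. Of the 34 rises, 33 had groups that did not overlap, the exception being MRPL23, and all 7 falls were apart. Of the 37 genes that did not pass, 34 had a 95% interval that lay within 1.5-fold in either direction.

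The genes with the largest rises were spread over both subunits. MRPL42 (Entrez ID 28977), a protein with no bacterial counterpart that was once assigned to the small subunit, had 105, 98.9 and 116 CPM in libraries labelled antisense, against 58.4, 63.7 and 49.1 CPM in vector control libraries. Every library labelled antisense was above every control library (log2 fold change 0.90, SE 0.11, 95% interval 0.66 to 1.15, edgeR adjusted p = 0.000141). MRPL34 (Entrez ID 64981), a small protein with a bacterial counterpart, had 75.6, 71.5 and 66.6 CPM in libraries labelled antisense, against 40.4, 37.8 and 41.3 CPM in vector control libraries. The groups were well apart (log2 fold change 0.84, SE 0.08, edgeR adjusted p = 3.08e-05). MRPL34 shares 223 exon bases with ABHD8 on the opposite strand, which fell (log2 fold change -1.37), and it is not known whether reads were counted by strand.

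MRPS35 (Entrez ID 60488), a small subunit protein particular to mitochondria, had 282, 266 and 288 CPM in libraries labelled antisense, against 169, 171 and 161 CPM in vector control libraries. Its spread was narrow in both groups, which lay far apart (log2 fold change 0.74, SE 0.07, edgeR adjusted p = 2.4e-05). MRPL1 (Entrez ID 65008), the protein of the mobile L1 stalk beside the exit site for spent tRNA, had 48.6, 44.6 and 54.9 CPM in libraries labelled antisense, against 31.9, 29.9 and 27.2 CPM in vector control libraries. It too rose without overlap (log2 fold change 0.74, SE 0.10, edgeR adjusted p = 0.000315). MRPL46 (Entrez ID 26589), which has no bacterial counterpart, had 67.7, 68.1 and 64.9 CPM in libraries labelled antisense, against 45.7, 39.6 and 41.9 CPM in vector control libraries, and its groups were likewise apart (log2 fold change 0.66, SE 0.08, edgeR adjusted p = 0.000133).

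The next rises by size were MRPL36 (0.62) and MRPL13 (0.49), which have bacterial counterparts, MRPS33 (0.54), MRPS22 (0.45) and MRPL51 (0.45), which have none, and MRPL47 (0.49), the counterpart of a bacterial protein beside the exit tunnel. MRPL51 shares 463 exon bases with NCAPD2 on the opposite strand, whose log2 fold change was -0.19. MRPL32, which is processed by a mitochondrial protease before it joins the ribosome, rose by a log2 fold change of 0.44, and MRPL54 by 0.41. All of these passed in each of the 6 fits that left out a library.

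**Figure D2:**
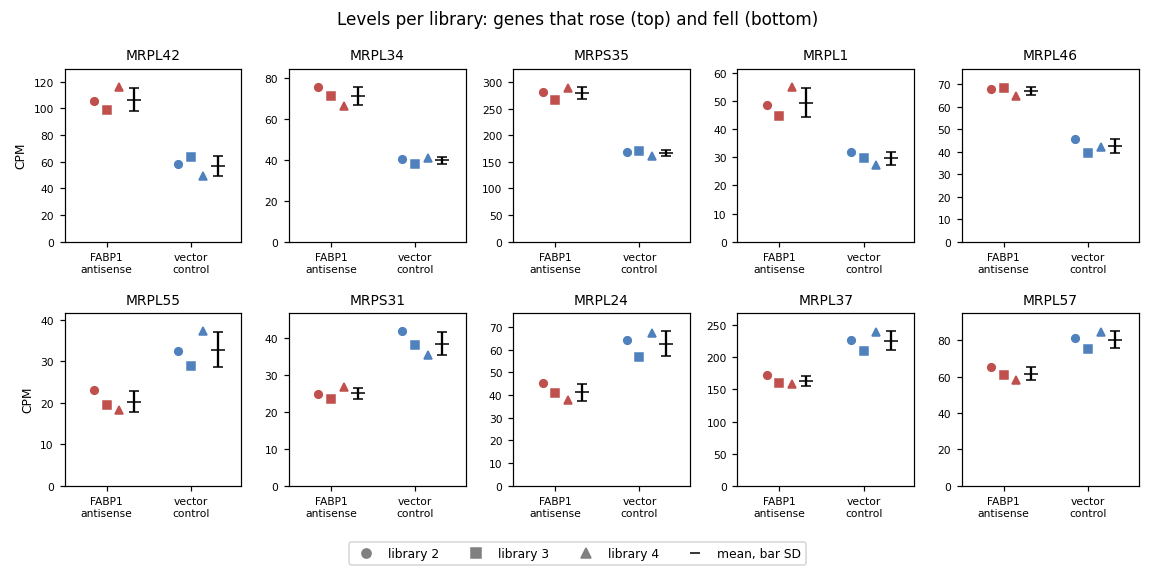
Levels in CPM, on linear axes from 0, of 5 genes that rose (top row) and 5 that fell (bottom row) in each library, with libraries labelled antisense in red on the left and vector control in blue on the right; bars give the mean and SD of 3 libraries. The 2 groups do not overlap in any of the 10 panels.

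All 7 genes that fell were called lower in each of the 12 alternatives tried. Of those classed here, 1 has a bacterial counterpart (MRPL24) and 5 count as particular to mitochondria. MRPL55 was not placed in either class, and its ancestry was not looked into. MRPL55 (Entrez ID 128308) had 23.1, 19.4 and 18.2 CPM in libraries labelled antisense, against 32.4, 28.8 and 37.2 CPM in vector control libraries. Every library labelled antisense was lower (log2 fold change -0.70, SE 0.12, 95% interval -0.98 to -0.42, edgeR adjusted p = 0.00135). MRPS31 (Entrez ID 10240), a small subunit protein with no bacterial counterpart, had 24.96, 23.5 and 26.6 CPM in libraries labelled antisense, against 41.8, 38.1 and 35.5 CPM in vector control libraries. The groups were apart (log2 fold change -0.62, SE 0.09, edgeR adjusted p = 0.000435). A near copy of this gene, the pseudogene MRPS31P5, was also lower (log2 fold change -0.46, edgeR adjusted p = 0.0183), and reads may be split between the copies.

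MRPL24 (Entrez ID 79590), a protein of the rim of the exit tunnel, had 45.1, 41.0 and 37.6 CPM in libraries labelled antisense, against 64.2, 56.6 and 67.3 CPM in vector control libraries. It fell without overlap (log2 fold change -0.60, SE 0.10, edgeR adjusted p = 0.000759). MRPL37 (Entrez ID 51253), a mitochondrial addition to the large subunit, had 173, 159 and 159 CPM in libraries labelled antisense, against 227, 210 and 240 CPM in vector control libraries. It was lower in all 3 (log2 fold change -0.47, SE 0.07, edgeR adjusted p = 0.000796). The others that fell were MRPL57 (-0.38), MRPL44 (-0.29), which resembles bacterial RNase III, and MRPS18B (-0.27).

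In both subunits more genes rose than fell. Of 49 large subunit genes 21 rose, 5 fell and 23 did not pass, with a median log2 fold change of 0.15. Of 29 small subunit genes 13 rose, 2 fell and 14 did not pass, with a median of 0.21. The shares called higher and lower were 42.9% and 10.2% in the large and 44.8% and 6.9% in the small subunit. Over all tested genes they were 27.7% and 27.3%. The difference between the subunits' medians was not tested. Leaving out vector control library 3 gave 7 falls in the large and 5 in the small subunit.

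Symbols do not always give a protein's place. MRPS30 lies beside MRPL37 in the large subunit of the mammalian mitoribosome, MRPS18A also sits in the large subunit, and MRPS36 is known as a component of the oxoglutarate dehydrogenase complex. MRPS30 had 83.3, 79.3 and 78.5 CPM in libraries labelled antisense, against 64.1, 63.2 and 64.9 CPM in vector control libraries. It rose (log2 fold change 0.33, SE 0.06, edgeR adjusted p = 0.00243), the opposite direction to MRPL37. MRPS36 (Entrez ID 92259) had 48.2, 50.2 and 58.4 CPM in libraries labelled antisense, against 32.1, 30.6 and 32.2 CPM in vector control libraries. This was also a rise without overlap (log2 fold change 0.72, SE 0.09, edgeR adjusted p = 0.000171). With MRPS30 and MRPS18A moved to the large subunit and MRPS36 left out, 22 of 51 large subunit genes rose and 5 fell (median 0.17), and 11 of 26 small subunit genes rose and 2 fell (median 0.19).

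Summed over the genes of a subunit, the level was higher in the libraries labelled antisense for both subunits. The large subunit genes summed to 5177, 4894 and 4742 CPM in libraries labelled antisense, against 4625, 4391 and 4654 CPM in vector control libraries (8.36% higher by the means, 4938 ± 221 against 4557 ± 144 CPM, SD, n = 3 each). The small subunit genes summed to 2912, 2764 and 2856 CPM in libraries labelled antisense, against 2551, 2391 and 2569 CPM in vector control libraries (13.6% higher, 2844 ± 74.4 against 2504 ± 97.8 CPM, SD, n = 3 each). For both sums, every library labelled antisense was above every control library. All 78 genes together took 0.797%, 0.770% and 0.775% of the counts in libraries labelled antisense, against 0.713%, 0.686% and 0.710% in vector control libraries.

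The ratio of the large to the small subunit sum, which no scaling of libraries can alter, was 1.78, 1.77 and 1.66 in libraries labelled antisense, against 1.81, 1.84 and 1.81 in vector control libraries. The lowest value was that of library 4 labelled antisense, where MRPS27 was far higher and MRPL10 far lower than in the other 2 libraries of the group. MRPL14 stood apart in library 2 labelled antisense. Without MRPS27, MRPL10 and MRPL14, a choice made after their values were seen, the ratio was 1.75, 1.75 and 1.76 in libraries labelled antisense, against 1.82, 1.79 and 1.80 in vector control libraries. That is a difference of -2.75% between means, and the groups did not overlap. With no test planned on it, the ratio is given as a description, and 3 libraries against 3 leave its precision low.

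**Figure D3:**
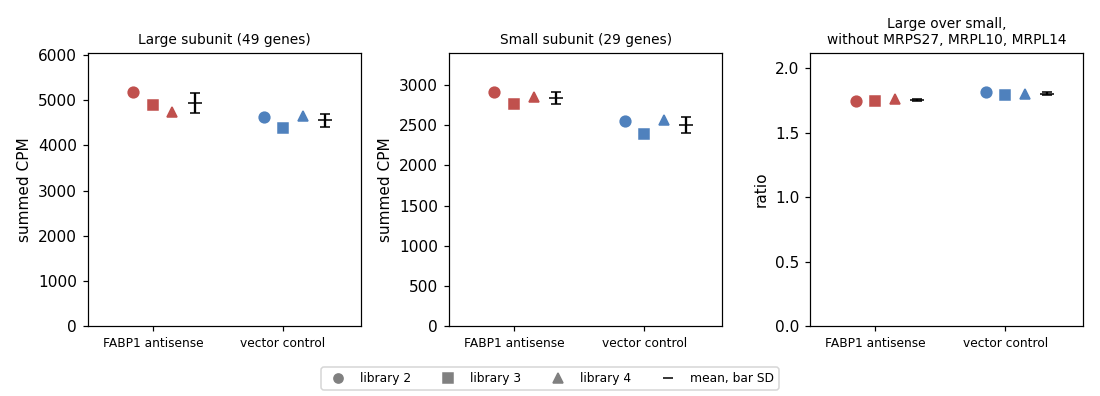
Summed CPM of large subunit genes (left) and small subunit genes (middle), and their ratio without MRPS27, MRPL10 and MRPL14 (right), in each library, with libraries labelled antisense in red on the left of each panel, vector control in blue on the right, axes from 0 and bars for the mean and SD of 3 libraries. Subunits go by symbol. Both sums are higher in all 3 libraries labelled antisense, and the ratio is 1.75 to 1.76 in them and 1.79 to 1.82 in vector control.

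These 3 genes varied far more between libraries of 1 group than the rest. The median coefficient of variation within a group was 6.32% over all 78 genes. The highest, 58.3%, was that of MRPS27 in libraries labelled antisense. MRPS27 (Entrez ID 23107), a pentatricopeptide repeat protein of the small subunit, had 97.2, 88.6 and 234 CPM in libraries labelled antisense, against 75.8, 82.0 and 79.8 CPM in vector control libraries. Library 4 labelled antisense stood far above the other 2 of its group, and all 3 were above every control library (log2 fold change 0.82, SE 0.32, edgeR adjusted p = 0.0559). Without it the log2 fold change was 0.23 (edgeR adjusted p = 0.0498), and without library 2 or 3 labelled antisense it was 1.03 and 1.07 (edgeR adjusted p = 0.0303 and 0.0224).

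MRPL10, at the base of the stalk that recruits translation factors, had 169, 162 and 65.5 CPM in libraries labelled antisense, against 77.3, 178 and 87.1 CPM in vector control libraries. High and low values occurred in both groups, which overlapped (log2 fold change 0.21, SE 0.39, edgeR adjusted p = 0.671). MRPL14 had 93.3, 55.1 and 51.9 CPM in libraries labelled antisense, against 55.4, 71.8 and 90.1 CPM in vector control libraries, and its groups overlapped as well (log2 fold change -0.12, SE 0.24, edgeR adjusted p = 0.701). The sign of the value turned in some fits that left out a library, to -0.01 for MRPL10 without library 2 of either group, and for MRPL14 to 0.07 without vector control library 4. The source of this spread was not tested.

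**Figure D4:**
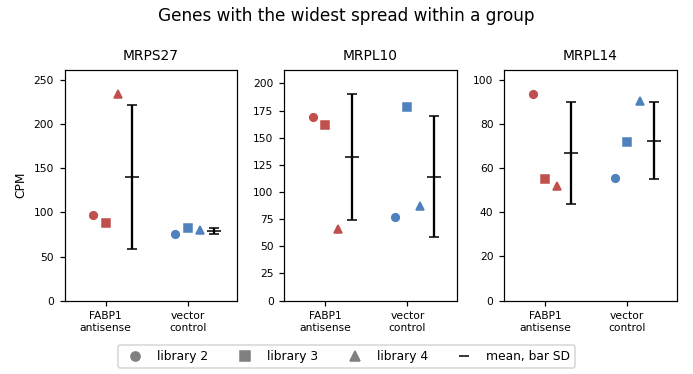
CPM of MRPS27, MRPL10 and MRPL14 in each library, on linear axes from 0, with libraries labelled antisense in red on the left, vector control in blue on the right and bars for the mean and SD of 3 libraries. Library 4 labelled antisense is at 234 CPM for MRPS27 and at 65.5 CPM for MRPL10, away from the other 2 of its group.

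MRPS12, a protein of the decoding centre, had 112, 104 and 91.1 CPM in libraries labelled antisense, against 79.5, 74.3 and 85.7 CPM in vector control libraries, and rose without overlap (log2 fold change 0.36, SE 0.09, edgeR adjusted p = 0.01). MRPL12, the stalk protein that also binds mitochondrial RNA polymerase, had 270, 242 and 218 CPM in libraries labelled antisense, against 255, 213 and 287 CPM in vector control libraries. Its groups overlapped (log2 fold change -0.05, SE 0.12, 95% interval -0.32 to 0.22), and its sign turned to 0.05 without vector control library 4. MRPL11, of the factor-binding region, had 279, 282 and 251 CPM in libraries labelled antisense, against 245, 224 and 239 CPM in vector control libraries. Its rise was narrow (log2 fold change 0.20, SE 0.07, edgeR adjusted p = 0.0459) and did not pass when any 1 library other than library 4 labelled antisense was left out (adjusted p up to 0.142).

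Among other well-known members, MRPS2 (log2 fold change -0.21), MRPS5 (0.18) and MRPL40 (-0.10) did not pass. MRPS2 did pass without vector control library 3 (-0.27, edgeR adjusted p = 0.0247). MRPL58, a peptidyl-tRNA hydrolase that frees stalled mitoribosomes, had 71.7, 66.1 and 63.8 CPM in libraries labelled antisense, against 54.9, 47.5 and 56.4 CPM in vector control libraries. It rose with no overlap (log2 fold change 0.34, SE 0.09, edgeR adjusted p = 0.00909).

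The remaining rises were of modest size. MRPL3, a core protein of the large subunit, had 304, 286 and 303 CPM in libraries labelled antisense, against 247, 243 and 228 CPM in vector control libraries, and rose without overlap (log2 fold change 0.32, SE 0.07, edgeR adjusted p = 0.00328). MRPL15 rose by the same log2 fold change, and both passed in all 6 fits that left out a library. MRPL48 (0.30) and MRPL21 (0.26) did not pass in 1 such fit, MRPL39 (0.31) in 2 and MRPS28 (0.29) in 3. MRPS17 (0.21) did not pass in any of the 6, so its call needed every library. The adjusted p was 0.0513 for MRPL48, 0.0884 for MRPS28 and 0.070 for MRPL21 without library 2 labelled antisense, 0.0657 for MRPL39 without library 4 labelled antisense and 0.121 for MRPS17 without vector control library 3.

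Apart from MRPS27, the 37 genes that did not pass had log2 fold changes between -0.21 (MRPL53) and 0.21 (MRPS18A). In 7 of them, MRPS27, MRPS23, MRPL16, MRPL43, MRPS25, MRPL30 and MRPS16, every library labelled antisense was above every vector control library, and in MRPL49, MRPL18 and MRPS9 every one was below. MRPS23 (0.21, edgeR adjusted p = 0.0502) and MRPL16 (0.20, edgeR adjusted p = 0.0553) lay just outside the threshold. The groups of the other 27 overlapped.

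Around the mouth of the exit tunnel, through which new membrane proteins leave, the genes did not move as one. MRPL24 fell, while MRPL17 (0.29), MRPL22 (0.24), MRPL23 (0.37), MRPL47 (0.49) and MRPL45 (0.22), the protein that docks the ribosome at the inner membrane, rose. Of these rises only that of MRPL47 passed in every fit that left out a library. MRPL22 did not pass in 1 such fit, MRPL17 in 3, MRPL23 in 4 and MRPL45 in 5. Without library 2 labelled antisense the adjusted p was 0.0805 for MRPL17, 0.0711 for MRPL22, 0.108 for MRPL23 and 0.0696 for MRPL45. MRPL23 shares exon bases with MRPL23-AS1 on the opposite strand, which fell (-1.04).

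MRPS18A, MRPS18B and MRPS18C are related to 1 bacterial protein and occupy different places in the mitoribosome. MRPS18A had 119, 119 and 102 CPM in libraries labelled antisense, against 101, 90.3 and 103 CPM in vector control libraries. Its groups overlapped (log2 fold change 0.21, SE 0.09, edgeR adjusted p = 0.0667, or 0.0243 without library 4 labelled antisense). MRPS18B had 114, 113 and 108 CPM in libraries labelled antisense, against 133, 130 and 139 CPM in vector control libraries, and fell without overlap (log2 fold change -0.27, SE 0.06, edgeR adjusted p = 0.00733). MRPS18C had 42.1, 42.6 and 37.7 CPM in libraries labelled antisense, against 33.3, 33.8 and 30.9 CPM in vector control libraries. It rose (log2 fold change 0.32, SE 0.08, edgeR adjusted p = 0.00872), so MRPS18B and MRPS18C moved in opposite directions.

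Split by ancestry, a grouping made after the files had been seen, 20 of 45 genes with a bacterial counterpart rose and 1 fell (median log2 fold change 0.18). Of 31 genes of proteins particular to mitochondria, 13 rose and 5 fell (median 0.21). MRPS18A and MRPS18B are counted there, as in the usual nomenclature, in spite of their bacterial relative. The other 2, MRPL55 and MRPS36, were not placed in either class here. The largest fall, MRPL55 (-0.70), is thus in neither count. In the first class 44.4% were called higher and 2.22% lower, and in the second 41.9% and 16.1%. Over all tested genes the shares were 27.7% and 27.3%, so falls were below the background in both classes. The difference between these classes was not tested.

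Levels per kilobase of transcript differed widely between the genes. The highest, as the mean of both groups, were MRPL12 (241 CPM per kilobase), MRPL27 (195), MRPS34 (188), MRPL47 (188) and MRPS24 (170), and the lowest were MRPS25 (10.8), MRPS33 (10.6) and MRPS11 (9.13), with a median of 66.5 CPM per kilobase over the 78. Lengths are medians over matched transcripts, so these levels depend on which transcripts the cells use. Of the 5 highest, MRPL47, MRPS34 and MRPS24 rose, and MRPL12 and MRPL27 (log2 fold change -0.10) did not pass. Across the 78 genes the rank correlation of log2 fold change with level per kilobase was -0.07, given as a description. Of the 6 fits that left out a library, MRPS24 (0.34) did not pass in 3, MRPS34 (0.39) in 4 and MRPS11 (0.28) in 5. The highest edgeR adjusted p of MRPS34 was 0.104, without library 3 labelled antisense. Without library 2 labelled antisense the edgeR adjusted p was 0.080 for MRPS24 and 0.116 for MRPS11.

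Fold changes in these libraries are partly shared by genes that lie near each other, so each gene was set beside its neighbours, up to 25 tested genes on either side in the RefSeq order. Of the 78 mitoribosomal genes, 56 had a higher log2 fold change than the median of their neighbours, where 49.9% of all tested genes did. The median gap to the neighbours was 0.21 (0.20 for the large and 0.21 for the small subunit), and it was -0.00 over all tested genes. Mitoribosomal genes followed their neighbourhood all the same: Pearson's r between a gene's value and its neighbours' median was 0.69 over the 78 genes. It was 0.23 over all tested genes. Both are given as a description, since neighbouring genes are not independent. The 2 values of r cannot be compared directly: log2 fold changes ran from -0.70 to 0.90 in the 78 genes. Over all tested genes they ran from -12.92 to 11.46.

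Of the 34 genes that rose, 27 lay where the neighbours' median was above 0, and of the 7 that fell, 6 lay where it was below. Of the 37 that did not pass, 9 lay where that median was above 0. The matching counts over all tested genes were not made, so these counts describe the mitoribosomal genes only. MRPL42 (0.90) lay among neighbours with a median of 0.61, the highest around any of the 34. MRPL34 (0.84), by contrast, lay among neighbours at 0.05. All 3 genes on chromosome 12 rose (MRPL42, MRPS35 and MRPL51), where the median over all tested genes was 0.44. All 4 on chromosome 7 rose, with a chromosome median of 0.12. Both genes on chromosome 13, MRPL57 and MRPS31, fell, where the chromosome's median was -0.23. On chromosome 1, with a median of -0.37, 3 of 8 fell and 1 rose. Other chromosomes differed from these examples. On chromosome 11 (median -0.04) 5 of 7 rose, on 19 (-0.04) 3 of 4 and on 17 (-0.14) 2 of 8, and 0 fell on each. How much of each gene's change is its own and how much is shared with its neighbourhood was not tested.

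A few genes moved against their neighbourhood. MRPS21, on chromosome 1, had 16.4, 17.6 and 17.3 CPM in libraries labelled antisense, against 13.9, 12.8 and 13.7 CPM in vector control libraries. It rose (log2 fold change 0.34, SE 0.08, edgeR adjusted p = 0.00562) among neighbours with a median of -0.39, and 44 of its 50 neighbours had lower values. MRPL54, MRPL58, MRPL48, MRPL21, MRPL45 and MRPL11 also rose among neighbours whose median was below 0. MRPL44 had 105, 100.0 and 101 CPM in libraries labelled antisense, against 125, 125 and 123 CPM in vector control libraries, and fell (log2 fold change -0.29, SE 0.06, edgeR adjusted p = 0.00418) among neighbours at 0.06.

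**Figure D5:**
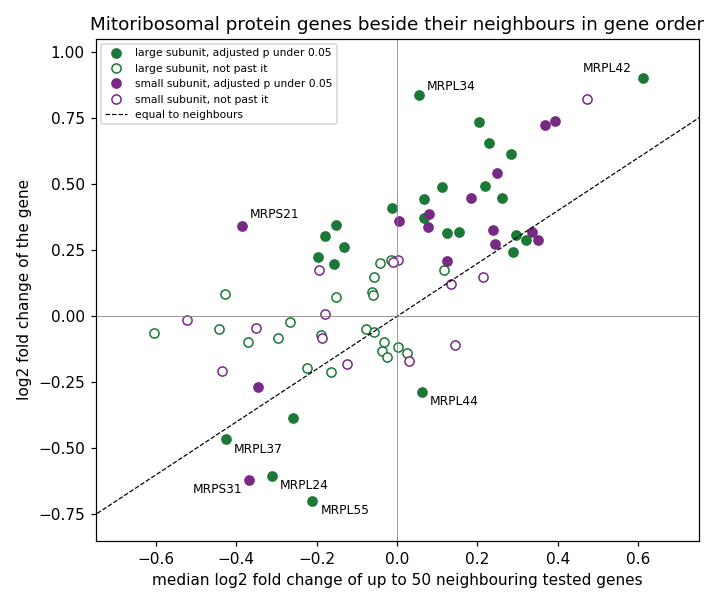
Log2 fold change of each of the 78 mitoribosomal protein genes (vertical axis) against the median log2 fold change of up to 50 neighbouring tested genes (horizontal axis), large subunit in green, small in purple, filled where adjusted p was under 0.05, with a dashed line where both are equal. Most points, 56 of 78, lie above the line, with MRPL34 and MRPS21 among those far above it and MRPL44 and MRPL55 below it.

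Promoters of nuclear genes for mitochondrial proteins are known for sites of the activators NRF1 and GABP, an ETS factor, and of YY1. In the RefSeq promoter table (build GRCh38.p14, 250 bases before to 50 after the first listed start), 70 of the 78 genes had an entry. The motif GCATGCGC (NRF1) was found on either strand in 6 of them (8.57%), CCGGAAG (ETS) in 29 (41.4%) and AAGATGGC (YY1) in 20 (28.6%). The shares over all 27305 promoters in the table were 3.27%, 10.7% and 3.03%, and over the 11490 promoters of tested genes 5.46%, 18.6% and 5.13%. At least 1 of the 3 motifs stood in 42 of the 70 (60.0%), against 15.6% of all promoters and 26.3% of promoters of tested genes. Such a match is a run of letters and shows no binding, and no printed match overlaps one of another motif.

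The position of the matches was uneven. The YY1 letters lay after the start in 15 genes, with first bases between positions 7 and 36, and before it in 5. The ETS letters lay before the start in 26 genes, in 19 of them within 60 bases. These 30-base sites show the YY1 letters in capitals in 4 genes with a match after the start, 3 that rose and 1 that fell (MRPS18B), each read 5′ to 3′ on the gene's strand.

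MRPL42, chr12:93467511-93467540, plus strand: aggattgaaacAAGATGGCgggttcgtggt
MRPL46, chr15:88467362-88467391, minus strand: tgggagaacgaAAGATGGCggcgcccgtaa
MRPL51, chr12:6493223-6493252, minus strand: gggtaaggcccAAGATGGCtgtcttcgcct
MRPS18B, chr6:30617852-30617881, plus strand: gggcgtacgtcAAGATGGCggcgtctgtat

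The ETS and NRF1 letters, in capitals here, are shown in genes of either direction: MRPL47 and MRPL22 rose, and MRPS31 and MRPS18B fell.

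MRPL47 (ETS), chr3:179604659-179604688, minus strand: ggcttgagacgCCGGAAGtgacgctatcgt
MRPS31 (ETS), chr13:40771204-40771233, minus strand: aaggcgccaggCCGGAAGcggaagagaggg
MRPL22 (NRF1, on the other strand), chr5:154941038-154941067, plus strand: tccagagtattGCGCATGCgtgctgtccag
MRPS18B (NRF1), chr6:30617806-30617835, plus strand: agtttcctgaaGCATGCGCagttgcctttc

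The motifs were found in genes that rose, fell and did not pass. Of the 29 rising genes with a promoter entry, 12 held the ETS, 11 the YY1 and 4 the NRF1 letters. Of the 7 that fell, 1 held each. Of the 34 that did not pass, 16 held the ETS, 8 the YY1 and 1 the NRF1 letters. By subunit, the ETS letters stood in 40.5% of large and 42.9% of small subunit promoters, and the YY1 letters in 28.6% of each. To show a promoter with and one without these letters, the 250 bases before the start follow for MRPL47, which rose and holds a YY1 match on the other strand and an ETS match (in capitals), and for MRPL55, which had the largest fall and holds none of the 3.

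MRPL47, chr3:179604639-179604888, minus strand: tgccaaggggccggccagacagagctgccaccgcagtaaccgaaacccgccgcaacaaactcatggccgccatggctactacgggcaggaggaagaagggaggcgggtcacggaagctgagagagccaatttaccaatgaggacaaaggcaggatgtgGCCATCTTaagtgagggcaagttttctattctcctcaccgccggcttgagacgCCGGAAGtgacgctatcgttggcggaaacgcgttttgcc
MRPL55, chr1:228109300-228109549, minus strand: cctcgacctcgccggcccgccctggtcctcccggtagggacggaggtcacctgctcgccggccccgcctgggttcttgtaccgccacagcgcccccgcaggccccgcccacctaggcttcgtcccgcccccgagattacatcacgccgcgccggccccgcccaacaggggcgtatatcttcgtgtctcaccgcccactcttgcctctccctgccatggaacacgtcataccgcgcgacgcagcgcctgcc

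The genes that build and serve the mitoribosome changed in both directions, and their counts stand beside the same background of 27.7% called higher and 27.3% lower. Of 6 mitoribosomal proteins with other symbols, 3 rose, 1 fell and 2 did not pass. NDUFAB1, the mitochondrial acyl carrier protein, which is bound to the mitoribosome and to complex I, had 148, 136 and 142 CPM in libraries labelled antisense, against 68.5, 61.3 and 62.7 CPM in vector control libraries. Its groups were far apart (log2 fold change 1.14, SE 0.07, edgeR adjusted p = 3.18e-06). CHCHD1 (0.29) and PTCD3 (0.21) also rose. DAP3, a GTP-binding protein of the small subunit, fell (-0.19, edgeR adjusted p = 0.0315) but did not pass in 4 of 6 fits that left out a library, with adjusted p up to 0.114. PTCD3 did not pass without library 2 or 4 labelled antisense (edgeR adjusted p = 0.0625 and 0.0719) or without vector control library 4 (0.0594).

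Of 29 genes for assembly of the mitoribosome and modification of its RNA, 9 rose and 4 fell, with a median log2 fold change of -0.01. METTL15, a methyltransferase of the small subunit RNA, rose by a log2 fold change of 0.87, NGRN, which is needed for the large subunit RNA, by 0.73, the GTPase GTPBP10 by 0.58 and YBEY by 0.53. MTG1, a GTPase of large subunit assembly, fell (-0.56), as did TFB1M (-0.45) and NSUN4 (-0.35), both methyltransferases, and MTG2 (-0.22). Without library 3 labelled antisense 2 of the 29 were called lower, and the adjusted p of TFB1M was 0.0526.

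Of 18 mitochondrial translation factors, 6 rose and 3 fell, with a median of 0.14. TSFM, the exchange factor of the elongation factor TUFM, had 98.1, 88.4 and 91.5 CPM in libraries labelled antisense, against 61.2, 57.4 and 57.6 CPM in vector control libraries, and rose without overlap (log2 fold change 0.66, SE 0.07, edgeR adjusted p = 8.3e-05). MTFMT, which formylates the initiator tRNA, rose as well (0.43). The release factor MTRF1 (-0.52), the initiation factor MTIF2 (-0.35) and OXA1L (-0.31), which inserts new proteins into the inner membrane, fell.

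The ribosomal RNAs of the mitoribosome were in the table as RNR1, of the small, and RNR2, of the large subunit. RNR2 took 0.745%, 0.701% and 0.726% of the counts in libraries labelled antisense, against 0.292%, 0.339% and 0.308% in vector control libraries. It rose in all 3 (log2 fold change 1.20, SE 0.06, edgeR adjusted p = 6.94e-07). RNR1 took 0.115%, 0.0914% and 0.102% of the counts in libraries labelled antisense, against 0.0823%, 0.0912% and 0.0988% in vector control libraries, and its groups overlapped in CPM (log2 fold change 0.17, SE 0.10, edgeR adjusted p = 0.189). RNA was selected by its polyA tail, so the counts of either RNA need not follow its amount in the cell.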

How the data were processed

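TRIzol RNA went into a stranded TruSeq mRNA kit, per the labels' protocols. Per the submitters' processing notes, the build was GRCh37 and the tools included StringTie 1.3.4d, HISAT2 2.1.0, Trimmomatic 0.38 and Bowtie2 2.3.4.1. The deposited table holds read counts per gene that the authors had not normalized, and 12 further per-library columns were not used here. Columns were matched to groups only: headers number the libraries 2, 3 and 4, while the labels number them 1, 2 and 3.

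Counts were tested with edgeR 4.0.16 in R 4.3.3 (filterByExpr, TMM scaling, quasi-likelihood test, Benjamini-Hochberg adjustment over 14640 genes, threshold 0.05). CPM use TMM library sizes, errors are the SD of 3 libraries, and floors of 3 counts cover counting error only. The biological coefficient of variation was 11.8%, so libraries of a group differed by more than counting noise. Alternatives used DESeq2 1.42.0, other scalings and filters, each library left out, and a block on header numbers.

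Gene order and promoters came from RefSeq (GRCh38.p14), with no coordinates converted, and lengths from GENCODE transcripts. Exon overlap used the same annotation: 34 of the 78 genes share exon bases with another gene, 24 with one on the opposite strand. Use of strand in counting is not given in the sources. The comparison of the MRPS18 protein sequences that had been planned was not run.

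The genes and lists were chosen with earlier results of these data known. The text names the 12 largest rises and the falls, the highest and lowest per kilobase, the MRPS18 genes, MRPS30, MRPS36 and some well-known members. Others were named after their values were seen.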

Additional observations from a re-analysis of the deposited data

How the results depend on the processing

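Of the 41 mitoribosomal genes called, 28 were called in the same direction in all 12 alternatives. The other 13 were not called in at least 1, none reversed its call, and 9 further genes were called in at least 1. No scaling moved the median of all genes by over 0.1 (0.003 to 0.036 over all settings). With 1 library left out, 23 to 32 of the 78 genes were called higher and 7 to 12 lower, the 12 without vector control library 3. Over all tested genes, 23.6% to 27.5% were called higher in these fits and 23.1% to 26.4% lower. The 26.4% was also without vector control library 3. In the small subunit 2 to 5 were called lower. Of the proteins with other symbols 0 to 2 were called lower, and of the assembly genes 2 to 6. By symbol, the subunit ratio of libraries labelled antisense over vector control was 0.954, or 0.942 to 0.975 with 1 library left out. It was 0.967 with MRPS30 and MRPS18A moved to the large subunit and MRPS36 left out. Some log2 fold changes that did not pass turned sign when 1 library was left out. MRPL10 ran from -0.007834 to 0.6812, below 0 without library 2 of either group. MRPL12 ran from -0.1568 to 0.05286, above 0 without library 4 of either group. MRPL14 ran from -0.437 to 0.06723, above 0 without library 3 or 4 labelled antisense or vector control library 4. The cause was not tested beyond there being fewer samples.

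The numbers in the headers gave no sign of a pairing: same-numbered libraries correlated at 0.026, -0.077 and -0.094 in their deviations from group means. Libraries of unlike number reached 0.105 (library 4 labelled antisense with vector control library 3). Deviations from a mean of 3 libraries depend on each other, so these values cannot exclude a pairing. With a replicate block on the header numbers, 22 of the 78 genes were called higher and 7 lower, with 8 small subunit genes higher. Of the proteins with other symbols, 1 was called higher and 0 lower. Over all genes the block gave 6661 calls against 8054, with 22.9% called higher and 22.6% lower.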
